A study of Homo sapiens with 8 samples.

Results

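The mRNAs described here are 115 genes whose single listed isoform had a higher log2 fold change over a transcription block in RBMS1 knockdown than in control cells. Whether they decayed more slowly was not tested. They were taken from 6274 single-isoform mRNAs, out of 12479 genes with a value in both deposited tables. A gene counted as single-isoform when exactly 1 RefSeq accession, a coding one, was listed over both tables. Each table gives 1 log2 fold change per transcript, 9 h over 0 h of the block. The knockdown value minus the control value was centred on its median over the 6274 mRNAs, which was −0.02, and genes at 1 or more were kept. Genes at −1.5 or below in both tables and genes whose symbol starts with ZNF were left out. The members were thus chosen by both log2 fold changes, whose size and direction are given as a description, with no test. RefSeq itself lists 1 coding accession for 52 of the 114 members it holds (45.6%), so "single-isoform" refers to what was listed in the tables.

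The cells were SW480, a human colorectal adenocarcinoma line that the series text calls breast cancer cells. The 4 groups, with 2 libraries each, were shRBMS1 cells at 9 h, shRBMS1 cells at 0 h, shControl cells at 9 h and shControl cells at 0 h. The 9 h cells had received 10 µg/mL of alpha-amanitin, an inhibitor of RNA polymerase II, so mRNA made before the block is followed as it decays. The shRNAs were stably expressed. Of 2 RBMS1 shRNA clones in the series text, the one behind these libraries is not given in the sources used here. Whether the 2 libraries per group were separate cultures is not stated. The deposited values combine the libraries, with no counts or depth, so the error of a single value is unknown and every comparison rests on the size of the values alone. Of 11 colon epithelial markers, 6 had a value in both tables (EPCAM, KRT8, KRT18, CDH1, CDX2 and ASCL2), against 2 of 5 leukocyte markers, 1 of 5 fibroblast markers and none of the 4 endothelial markers. No marker was a member.

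RBMS1 is an RNA-binding protein with a pair of RNA recognition motifs that binds AU-rich single-stranded sequence and is known to stabilise some mRNAs through their 3′UTRs. The level of an mRNA after a block reflects how fast deadenylation, decapping and exonucleases remove it. Transcription factors and chromatin regulators are known for short-lived mRNAs, metabolic enzymes and ribosomal proteins for long-lived ones. The log2 fold change is relative to the other RNAs of the same cells, since the total falls during the block, so a value above 0 does not mean that an mRNA was made.

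The members' values sat near 0 after knockdown and were displaced downward in control cells. The median in the authors' deposited tables was 0.29 in shRBMS1 cells (quartiles −0.07 and 0.78), against −1.01 in shControl cells (quartiles −1.49 and −0.63). Over all 6274 single-isoform mRNAs the authors' deposited tables had medians of −0.09 in shRBMS1 cells and −0.11 in shControl cells. The centred difference of the members had a median of 1.30 and quartiles of 1.14 and 1.57. It lay between 1 and 1.5 for 81 members, between 1.5 and 2 for 19, and at 2 or more for 15. The rule's cut of 1 was reached by 125 of the 6274 mRNAs (1.99%), and −1 or below by 78 (1.24%). After the same exclusions 73 of these 78 form a mirror set, used below for comparison, with medians in the authors' deposited tables of −0.92 in shRBMS1 cells and 0.57 in shControl cells. These shares describe how the rule cut the distribution, and nothing is read from them.

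Members differed in where the difference arose. For 60 of 115 (52.2%) the control value was at −1 or below, which 9.56% of all single-isoform mRNAs reached. For 21 (18.3%) the knockdown value was at 1 or above, which 1.69% of all reached. Both held for 4 members and neither for 38. In 68 members (59.1%) the control value was below 0 and the knockdown value above it, against 8.21% of all single-isoform mRNAs. Both were below 0 in 35 members (30.4%, against 49.2%) and above 0 in 12 (10.4%, against 34.9%). The knockdown value lay within 0.5 of 0 for 70 members (60.9%), against 67.9% of all single-isoform mRNAs. Closeness to 0 in knockdown cells thus did not set the members apart. Many members were low after 9 h in control cells, and a smaller group was high in knockdown cells.

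**Figure D1:**
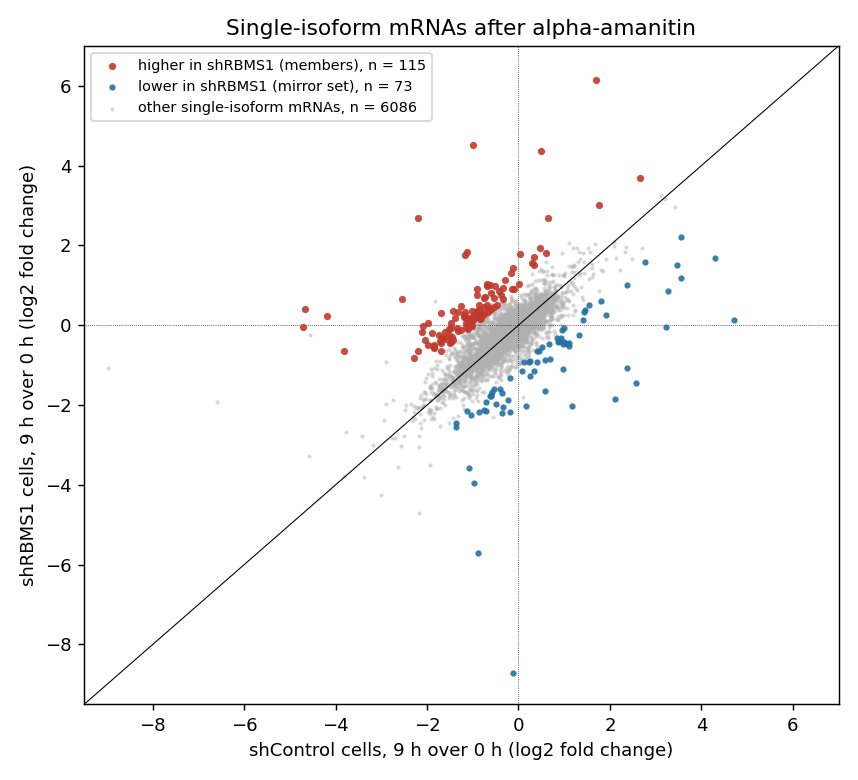
Each point is 1 single-isoform mRNA, with its log2 fold change of 9 h over 0 h in shRBMS1 cells (vertical axis) and in shControl cells (horizontal axis); the diagonal marks equal values. The 115 members lie above the diagonal, most of them left of 0 on the control axis, and the 73 mRNAs of the mirror set lie below it.

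The cut ran through a continuous range. Just inside it were CNFN, FAM98B and FBRS at a centred difference of 1.01 and GABRQ at 1.00, and just outside were GDPD3 at 0.997, PGRMC2 at 0.991, and PCIF1 and TRMT10B at 0.990. The exclusions removed 10 of the 125 genes. Among them were 7 ZNF genes, led by ZNF548 with a difference of 7.91 and ZNF630 with 4.33, and 3 labile genes, CAMKK1 at 4.68, EIF4ENIF1 at 1.32 and H1-6 at 1.11.

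Chromatin and transcription co-regulators were represented by 17 members, the proteins that modify histones, move nucleosomes or bridge factors to the polymerase. In the authors' deposited tables their median was −0.02 in shRBMS1 cells and −1.31 in shControl cells. In shControl cells 14 of the 17 stood at −1 or below, against 52.2% of all members and 9.56% of all single-isoform mRNAs. This grouping by role, like the others below, was made after the values were seen. It was made for members only, so the group sizes have no share over all mRNAs beside them. In a list drawn mainly from names, 4 of 158 chromatin regulators were members (2.53%), against 1.83% of all single-isoform mRNAs. SRCAP, the ATPase of a complex that deposits the histone variant H2A.Z, stood in the authors' deposited tables at −0.36 in shRBMS1 cells and at −2.04 in shControl cells. EP400, the related ATPase of the TIP60 complex, stood at 0.33 in shRBMS1 cells and −1.18 in shControl cells in the authors' deposited tables. INO80, another ATPase of this class and no member, went the other way, with −1.63 in shRBMS1 cells and −1.04 in shControl cells in the authors' deposited tables. The mRNAs of these related remodelers therefore did not share 1 pattern.

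The acetyltransferase EP300 (p300) stood in the authors' deposited tables at −0.32 in shRBMS1 cells and −1.68 in shControl cells. Its paralog CREBBP missed the cut narrowly, with a centred difference of 0.91 against 1.37 for EP300. The histone H3 lysine 4 methyltransferases KMT2D and KMT2B had centred differences of 1.28 and 1.20. KMT2D stood in the authors' deposited tables at −0.25 in shRBMS1 cells and −1.51 in shControl cells. The other members of that enzyme family were below the cut with the same direction, KMT2C at 0.94, KMT2A at 0.83 and KMT2E at 0.64. All 5 KMT2 mRNAs thus lay above the median mRNA, 2 of them past the cut.

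KAT6B, a MYST-family acetyltransferase, had a centred difference of 1.30, and BRPF3, a scaffold of MYST complexes, 1.02. The paralog BRPF1 was at −0.69. SPEN, a large RNA-binding corepressor, was at 1.19 and HCFC1, a cofactor that joins transcription factors to chromatin enzymes, at 1.14. ATN1 (atrophin-1, a corepressor) had the highest difference of the group, 2.03, with 0.31 in shRBMS1 cells and −1.71 in shControl cells in the authors' deposited tables. The rest were GATAD2B of the NuRD complex at 1.45, BCL9L, a coactivator of β-catenin, at 1.42, SKI, a corepressor in TGF-β signalling, at 1.37, and FBRS at 1.01.

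Of 95 single-isoform transcription machinery genes 2 were members, POLR2A and CCNK (2.11%, against 1.83% of all single-isoform mRNAs). POLR2A, the largest subunit of RNA polymerase II and the protein that alpha-amanitin binds, stood in the authors' deposited tables at 1.01 in shRBMS1 cells and −0.63 in shControl cells, a centred difference of 1.66. The 8 other subunits listed with 1 accession (POLR2C, POLR2D, POLR2E, POLR2G, POLR2I, POLR2J, POLR2K and POLR2L) lay between −0.11 and 0.11. Of the subunits with several isoforms, POLR2F ranged from −2.14 to 2.00 and POLR2B from −8.93 to 0.08. Isoforms of POLR2H lay between −0.03 and 0.08. CCNK, the cyclin partner of the kinases CDK12 and CDK13 that phosphorylate the polymerase tail, had a difference of 1.68. TOP1, the nuclear topoisomerase that relaxes DNA ahead of the polymerase, was at 1.27, and its mitochondrial relative TOP1MT at 0.06.

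DNA-binding transcription factors numbered 13. Their medians in the authors' deposited tables were 0.05 in shRBMS1 cells and −1.20 in shControl cells, and none of the 13 reached 1 in shRBMS1 cells. GLI3, a zinc-finger effector of Hedgehog signalling, was the lowest of them in control cells, with −0.64 in shRBMS1 cells and −2.19 in shControl cells in the authors' deposited tables. The immediate early factor EGR1 stood in the authors' deposited tables at −0.65 in shRBMS1 cells and −1.71 in shControl cells. GLI3 and EGR1 were thus still below the average mRNA in knockdown cells, but less so than in control cells.

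Among other immediate early genes the differences varied widely. EGR3, which the single-isoform rule left out, had a centred difference of 2.01, larger than that of its paralog EGR1 (1.07). MYC stood in the authors' deposited tables at −1.38 in shRBMS1 cells and −1.44 in shControl cells, a centred difference of 0.07. FOS had a difference of 0.39 and JUN 0.21. SNAI2 (Slug), a factor of epithelial to mesenchymal transition, stood at 0.68 in shRBMS1 cells and −0.54 in shControl cells in the authors' deposited tables, and its paralog SNAI1 had a smaller difference, 0.54. RFX2, a factor of ciliary genes, led the group with 1.67, and RFX7 was at 1.28. Their relative RFX5, no member, had isoforms at −0.91 and 0.19. TFEB, a driver of lysosomal genes, was at 1.31, REL, an NF-κB subunit, at 1.17, NR1D1, a clock repressor, at 1.14 and MLXIP, a glucose-sensing factor, at 1.13. The remaining members were the developmental factors GBX2 at 1.51, OSR2 at 1.46, TOX2 at 1.35 and SP9 at 1.22.

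RNA processing, translation and the nuclear pore supplied 8 members, with differences of 1.01 to 1.53. SRRM2, a scaffold of nuclear speckles, stood in the authors' deposited tables at 0.04 in shRBMS1 cells and −1.47 in shControl cells. SF3B4, of the U2 snRNP, had a difference of 1.41, whereas SF3B2, SF3B3, SF3B5 and SF3B6, each with 1 accession, lay between −0.12 and 0.12. ZFP36L2, which binds AU-rich elements and recruits the deadenylase to mRNAs, stood at −0.50 in shRBMS1 cells and −1.97 in shControl cells in the authors' deposited tables. Its relative ZFP36 had a difference of 0.74, and another relative, ZFP36L1, had isoforms at 0.65 and −0.11. PABPC1, the cytoplasmic poly(A)-binding protein, was at 1.22, and its relative PABPC4 had isoforms at −1.24, 0.35 and 1.23. CTIF, a factor of cap-dependent translation, was at 1.09, POM121C, of the nuclear pore, at 1.05, the splicing cofactor RAVER1 at 1.02 and FAM98B, of the tRNA ligase complex, at 1.01. POM121C has near-identical copies in the genome, between which reads may be split.

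**Figure D2:**
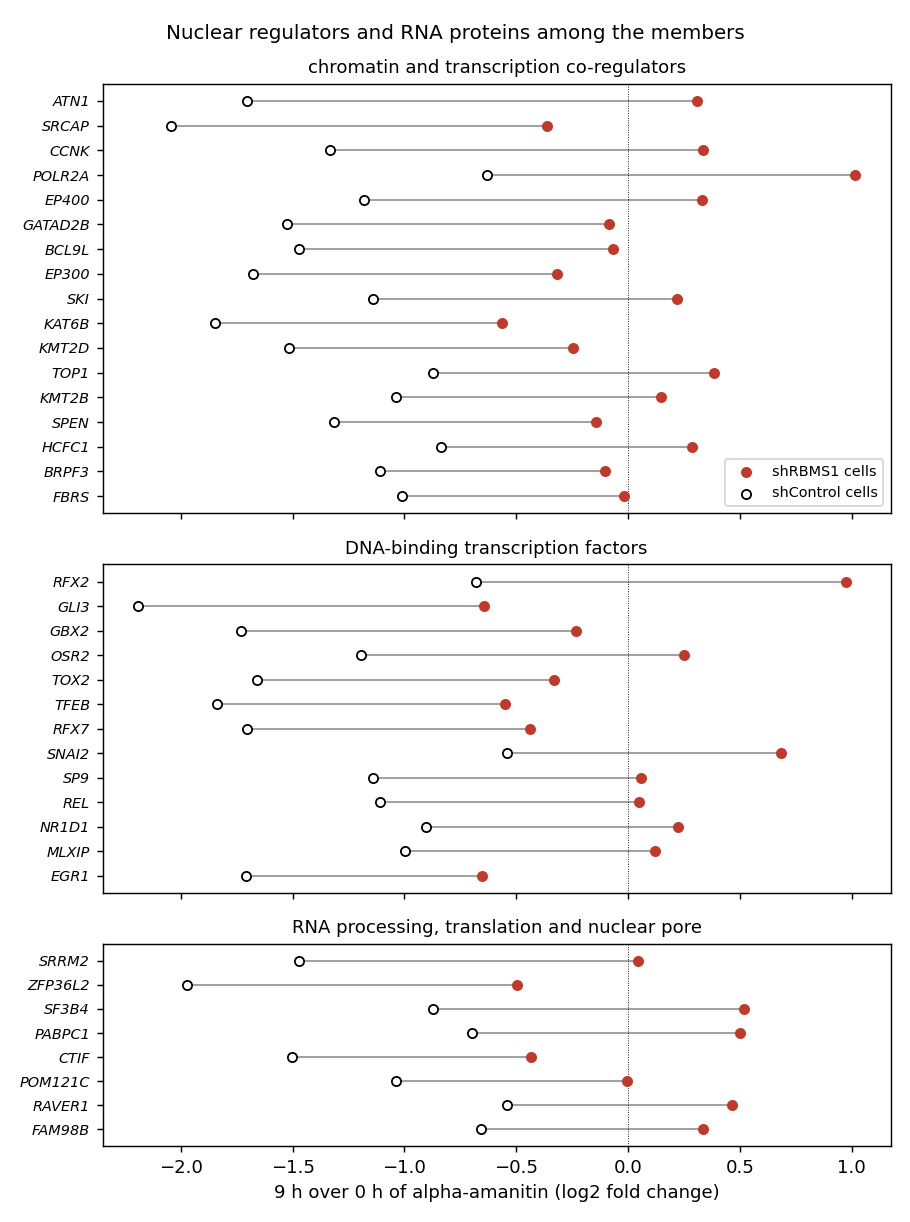
Each row is 1 member, with its log2 fold change of 9 h over 0 h in shRBMS1 cells (filled) and in shControl cells (open), joined by a line and sorted by their difference within 3 role groups. All 38 control values lie below 0, and the knockdown values lie between −0.65 (EGR1) and 1.01 (POLR2A).

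Receptors, ligands, kinases and phosphatases were the largest group, with 21 members and the largest single difference. STK31, a kinase-like protein with a Tudor domain, stood in the authors' deposited tables at 4.51 in shRBMS1 cells and −1.01 in shControl cells. EPHB6, an ephrin receptor without kinase activity, stood at 0.41 in shRBMS1 cells and −4.68 in shControl cells in the authors' deposited tables. ADCY7, which makes cyclic AMP, stood at 0.24 in shRBMS1 cells and −4.19 in shControl cells in the authors' deposited tables. STK31 thus stood out by a high knockdown value, EPHB6 and ADCY7 by a low control value. PRKACA, the catalytic subunit of the cyclic AMP-dependent kinase, was also a member, at 1.46. DENND1B, an activator of RAB35, had a difference of 2.97, the semaphorin SEMA4B 2.07, the endosomal phosphatase homologue PTPN23 1.59, the kinase CAMK1D 1.36 and the lipid kinase PIK3CB 1.14.

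The bitter taste receptors TAS2R14, TAS2R10 and TAS2R30 had differences of 1.83, 1.28 and 1.05. Another of the family, TAS2R43, was in the mirror set at −1.12. TAS2R genes resemble one another closely and their reads may be shared. UCN (urocortin, a stress peptide) was high in both populations, at 3.02 in shRBMS1 cells and 1.76 in shControl cells in the authors' deposited tables. LTB4R2, a leukotriene receptor whose exons overlap LTB4R and CIDEB, was at 1.23, and the ligand WNT9A at 1.04. ANKRD52 and PPP2R2C, regulatory subunits of phosphatases, were at 1.24 and 1.03. PPTC7, a mitochondrial phosphatase, was at 1.25, ARHGAP39 at 1.07 and the synaptic adhesion protein NLGN2 at 1.06.

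Several enzymes that turn over sphingolipids were among the members. SAMD8, which makes ceramide phosphoethanolamine, had the lowest control value of all members, with −0.05 in shRBMS1 cells and −4.72 in shControl cells in the authors' deposited tables. SMPD1, the lysosomal acid sphingomyelinase that releases ceramide, stood at 4.38 in shRBMS1 cells and 0.49 in shControl cells in the authors' deposited tables. SPHK1, which phosphorylates sphingosine, stood at 1.03 in shRBMS1 cells and −0.70 in shControl cells in the authors' deposited tables. These 3 were picked out after their values were seen, and the list of lipid metabolism genes holds 137 single-isoform mRNAs with 1 member, SMPD1, and a median difference of 0.01. Of the 9 further members in lysosomes and membrane traffic, differences ran from 1.03 for TMEM131 to 1.46 for CLTCL1, a clathrin heavy chain. They included TPP1, a lysosomal protease, the vesicle fusion proteins SYT7 and VAMP2, and FYCO1 and TP53INP2, which act in autophagy.

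Secreted, surface and matrix proteins numbered 11. Their medians in the authors' deposited tables were 1.13 in shRBMS1 cells and −0.30 in shControl cells; 6 reached 1 in shRBMS1 cells and 1 stood at −1 or below in shControl cells. IL18BP, a secreted trap of interleukin-18, had the highest knockdown value of all members, with 6.15 in shRBMS1 cells and 1.69 in shControl cells in the authors' deposited tables. The β-defensin DEFB128 stood at 2.69 in shRBMS1 cells and −2.20 in shControl cells in the authors' deposited tables. Another β-defensin, DEFB125, was in the mirror set with a difference of −2.41. LCN12, a lipocalin, stood at 3.70 in shRBMS1 cells and 2.67 in shControl cells in the authors' deposited tables. The others were LY6G5C at 1.76, the complement protease C1R at 1.48, the cystatin CST2 at 1.44, WFDC10B at 1.30, CSPG5 at 1.28, SUSD2 at 1.08, the basement membrane proteoglycan HSPG2 at 1.04 and CNFN at 1.01. A value per transcript without counts does not tell how many reads stood behind such genes.

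The 34 remaining members were spread over 4 groups. Among 7 cytoskeletal and ciliary genes FAM161A, a centriole and cilium protein, had the largest difference, 3.19, followed by CCDC120 at 1.77 and the actin-capping TMOD1 at 1.72. Among 5 channels and pumps LRRC8E, of the volume-regulated anion channel, had 2.07. Among 11 genes of metabolism, the ubiquitin system and DNA repair, the F-box gene FBXL8 had 2.08 and GDPGP1, which degrades GDP-glucose, 1.97; exons of FBXL8 overlap TRADD on the other strand. Among 11 readthrough and little-described genes FAM131B had 3.21 and TMEM169 2.94. Reads in exons that the readthrough genes URGCP-MRPS24 and TLCD4-RWDD3 share with their component genes may come from either.

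Gene families were also counted with lists drawn mainly from names. Of 201 single-isoform transcription factors 9 were members (4.48%, against 1.83% of all single-isoform mRNAs) and 1 was at −1 or below; 128 of the 201 lay above 0, with a median difference of 0.12. GATAD2B is counted there through its name, although it is a chromatin subunit. Of 158 chromatin regulators 4 were members (2.53%), none was at −1 or below, 102 lay above 0, and the median was 0.08. All 4, namely EP300, KAT6B, KMT2D and KMT2B, overlap exons of another annotated gene, and at a cut of 1.5 none of them is left. The list does not hold SRCAP, EP400 and ATN1, grouped above as co-regulators, whose differences were 1.70, 1.53 and 2.03. Exons of ATN1 overlap no other annotated gene. For the 6205 genes outside the single-isoform set, the difference was averaged over a gene's isoforms with a value in both tables. Such means are not the same measure as the value of a single isoform. Of these genes 483 (7.78%) were at 1 or above and 441 (7.11%) at −1 or below. There 172 transcription factors had a median of −0.05, with 15 (8.72%) at 1 or above and 18 (10.5%) at −1 or below. The 137 chromatin regulators had a median of 0.02, with 7 (5.11%) and 9 (6.57%). Both families were close to the background there, and no test of the difference from the single-isoform genes was possible.

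The other lists are given beside the 1.83% of all single-isoform mRNAs that were members, which would give only 1 or 2 members for a list of about 100. None of 50 cytosolic ribosomal proteins, 102 solute carriers, 99 glycosylation genes, 55 cell cycle genes or 15 Wnt and intestinal genes was a member. The same held for a list of 113 genes of central, amino acid and nucleotide metabolism, which does not hold the member GDPGP1. Of 172 mitochondrial genes 1 was a member (SDHC, of respiratory complex II). The 294 TMEM, FAM, CCDC and numbered open reading frames held 12 members and 11 genes at −1 or below, so both tails were filled alike. Protein kinases held 4 members of 152 (2.63%), G protein-coupled receptors 3 of 51 (5.88%), and RNA-binding and decay proteins 3 of 154 (1.95%). At −1 or below were 1 of these protein kinases, 3 of the G protein-coupled receptors and 0 of the RNA-binding and decay proteins. Over the 31 lists, 65 members belonged to at least 1 and 50 to none.

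RBMS1 itself had 2 accessions, with centred differences of −0.43 and −0.998, and was outside the single-isoform set. Its relative RBMS2 had a difference of 0.39. AKAP12, a kinase-anchoring protein reported as an RBMS1 target, was single-isoform and no member, with −0.27 in shRBMS1 cells and 0.65 in shControl cells in the authors' deposited tables. Its difference of −0.91 pointed the opposite way from the members. SDCBP (syntenin), also reported as a target, had 4 accessions, 3 of them in both tables, with differences of −0.44, −0.88 and 0.34.

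The members' coding sequences were longer than average. GENCODE release 29 (GRCh38) held a coding transcript for 112 of the 115 members. The median coding length was 1754 nt for members and 1038 nt for the mirror set, against 1332 nt for all 6134 matched single-isoform mRNAs. Coding sequences of 5000 nt or more were carried by 12 of 112 members (10.7%, exact 95% binomial interval 5.66 to 18.0%) and by 0 of 71 in the mirror set (upper bound 5.06%), against 271 of 6134 overall (4.42%). The 12 were KMT2D (16614 nt), DST, HSPG2, SPEN, SRCAP, EP400, SRRM2, KMT2B, EP300, KAT6B, HCFC1 and TMEM131, of which 8 are chromatin or transcription co-regulators. Exons of 9 of the 12 overlap another annotated gene. Among the 71 members without such overlap 3 (DST, HCFC1 and TMEM131) had coding sequences this long, 4.23%, against 4.13% of all non-overlapping single-isoform mRNAs, so the higher share rested on members that overlap another gene. The median coding length without overlap was 1620 nt for members and 1005 nt for the mirror set, against 1338 nt overall. The intervals here and below cover counting error over genes, which are not independent.

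That shift reached well beyond the members. Of the 271 mRNAs with a coding sequence of 5000 nt or more, 234 (86.3%) had a centred difference above 0, against 2834 of 5863 shorter ones (48.3%). Without overlapping genes it was 129 of 155 (83.2%). Their median in the authors' deposited tables was −0.16 in shRBMS1 cells and −0.42 in shControl cells, and their median difference was 0.20. Across 5 equal classes of coding length the share of members was 1.54%, 1.39%, 1.22%, 2.13% and 2.85% from shortest to longest, and the number of mirror-set mRNAs was 20, 22, 9, 10 and 10. Over all 6134 mRNAs the rank correlation of coding length with the difference was 0.18, and it was −0.16 with the knockdown value and −0.26 with the control value. The 3 values share the same transcripts and libraries and are descriptions across genes.

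**Figure D3:**
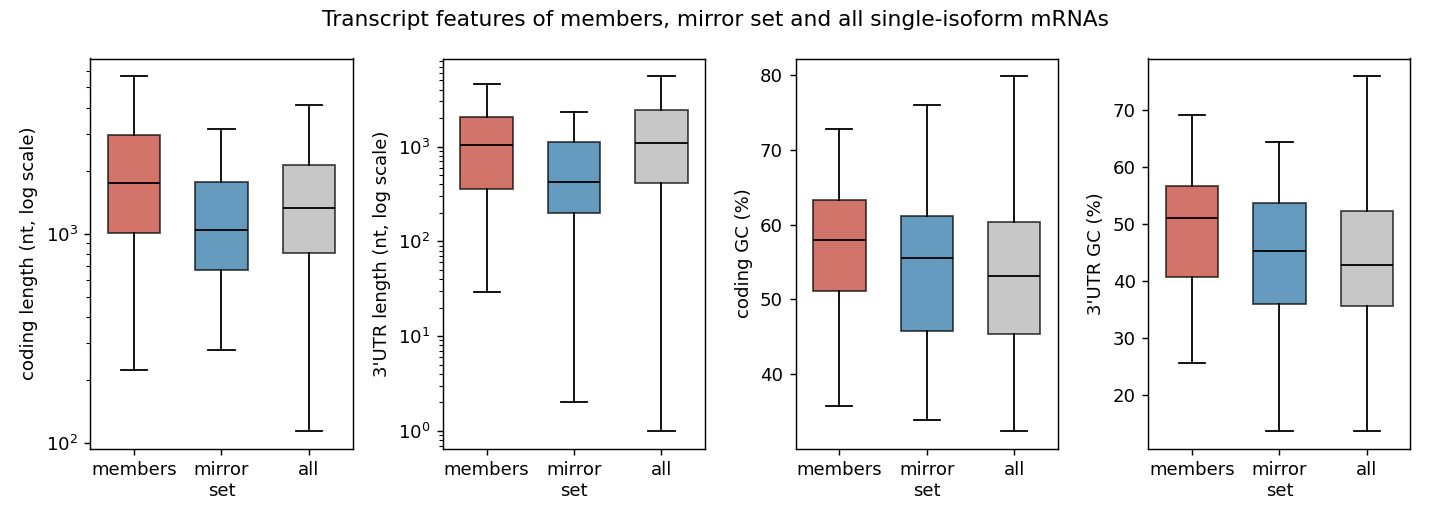
Boxes show median and quartiles, with whiskers to 1.5 interquartile ranges, of coding length, 3′UTR length, coding GC and 3′UTR GC for the members, the mirror set and all single-isoform mRNAs. Members have longer coding sequences (median 1754 nt, against 1332 nt overall) and GC-richer 3′UTRs (51.1%, against 42.9%), while their 3′UTR length (1033 nt) is close to the overall median (1084 nt).

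The members were also GC-rich. The median GC content of the 3′UTR was 51.1% for members and 45.3% for the mirror set, against 42.9% overall. Without overlapping genes it was 51.8% for members and 43.5% for the mirror set, against 41.9% overall. A 3′UTR GC of 50% or more was seen in 61 of 111 members (55.0%, interval 45.2 to 64.4%) and 25 of 68 in the mirror set (36.8%, 25.4 to 49.3%), against 1879 of 6045 overall (31.1%). Coding GC had medians of 57.9% for members, 55.5% for the mirror set and 53.1% overall. The 3′UTR length did not set the members apart from all mRNAs, with medians of 1033 nt and 1084 nt, whereas the mirror set was shorter, at 420 nt. Across 5 equal classes of 3′UTR GC the members numbered 15, 12, 16, 28 and 40, the last being 3.31% of the mRNAs in its class.

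The share of members was highest where both features met. Among mRNAs split at the median of each feature, 46 of 1464 with long coding sequence and GC-rich 3′UTR were members (3.14%). Members made up 2.05% of those with short coding sequence and GC-rich 3′UTR, 1.28% of those with long coding sequence and AT-rich 3′UTR, and 0.894% of those with neither. The mirror set took 0.820%, 1.54%, 0.765% and 1.38% of the same 4 classes.

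**Figure D4:**
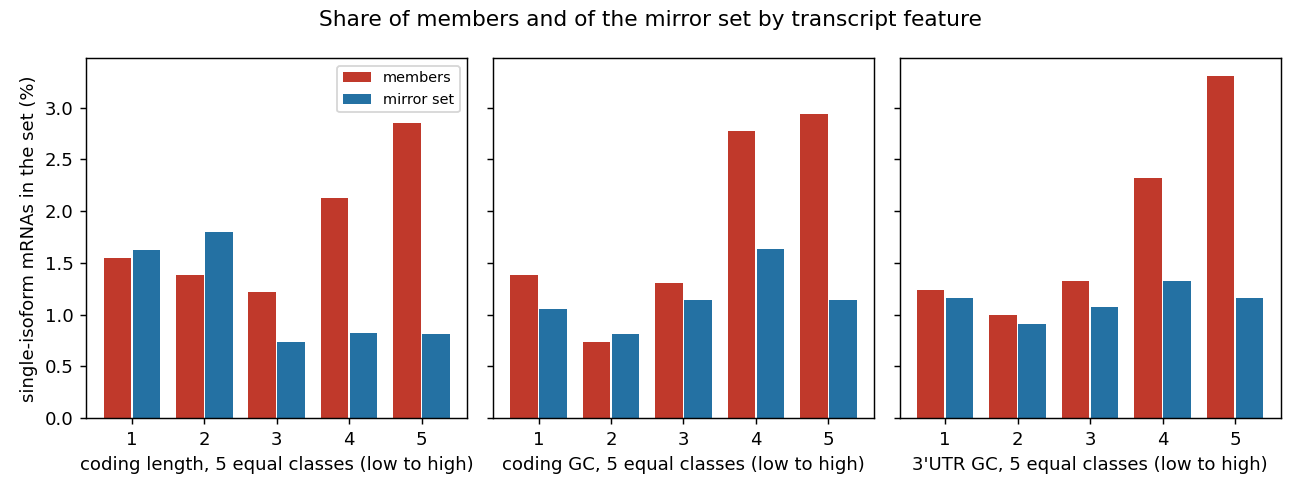
Bars give the percentage of single-isoform mRNAs that are members (left bar) or belong to the mirror set (right bar) in each of 5 equal classes of coding length, coding GC and 3′UTR GC. The share of members is highest in the top class of each feature, 2.85%, 2.93% and 3.31%, and exceeds that of the mirror set there.

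Sequence of the kind RBMS1 binds was not more common in the members' 3′UTRs than in those of all single-isoform mRNAs. The share with such sequence was higher than in the mirror set, but the intervals overlap. Mirror-set 3′UTRs were also shorter, with a median of 420 nt against 1033 nt in members. The pentamer ATATA was searched on the sense strand of 111 members with a 3′UTR of at least 20 nt. It occurred in 58 members (52.3%, interval 42.6 to 61.8%) and in 25 of 68 of the mirror set (36.8%, 25.4 to 49.3%). Of all 6045 single-isoform mRNAs searched, 3492 held it (57.8%). Within the last 500 bases it was found in 33.3% of members and 27.9% of the mirror set, against 40.5% of all. Per kb of 3′UTR there were 1.45 sites in members and 1.07 in the mirror set, against 1.79 overall. The 3′UTR is that of the longest annotated transcript, which may not be the one measured; without SDHC, whose annotated 3′UTR is unusually long, the members had 1.48. The longer form ATATAG, which contains ATATA, occurred in 18.0% of members and 5.88% of the mirror set, against 25.4% overall. Among mRNAs without ATATA 2.08% were members, with 1 or 2 sites 1.83%, and with 3 or more 1.54%. The median difference was 0.02, 0.00 and −0.01 in the same 3 classes.

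Windows of the 3′UTR around ATATAG are printed for 8 of the members with large differences or in 1 of the gene lists. They show in what context the motif lies where it is present. Other such members, among them TAS2R14 and WDR44, also hold it and are not printed. DENND1B and GLI3 hold 2 sites each, of which 1 is shown. All windows come from GENCODE release 29 transcripts, in GRCh38 coordinates, 5′ to 3′ on the strand of the gene, with the motif in capitals. The windows lie at chr10:75181056-75181081 (SAMD8, plus strand), chr2:61825162-61825187 (FAM161A, minus), chr1:197509773-197509798 (DENND1B, minus), chr2:216101917-216101942 (TMEM169, plus), chr7:41963320-41963345 (GLI3, minus), chr2:43222759-43222784 (ZFP36L2, minus), chr11:61518105-61518130 (SYT7, minus) and chr2:60922565-60922590 (REL, plus), each within the annotated 3′UTR.
SAMD8: ggtaatgataATATAGtcatttgcca
FAM161A: cataaagataATATAGcataagacat
DENND1B: attcagtgaaATATAGgaagtgctga
TMEM169: gagaatttatATATAGatattagcta
GLI3: aattgattatATATAGctctaagtat
ZFP36L2: cactttttttATATAGatataaagtg
SYT7: cgaggatagtATATAGcccgctcctg
REL: gataccacctATATAGatgcagcatt

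The windows of GLI3, TMEM169 and ZFP36L2 run into further A and T, whereas that of SYT7 is bordered by GC-rich sequence. A match is a description of the letters and does not show that RBMS1 binds there.

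An element of other decay factors was counted in the same way. The AU-rich pentamer ATTTA, the core of elements bound by ZFP36 proteins, occurred in 65 of 111 members (58.6%) and 54.4% of the mirror set, against 69.5% overall. The members were thus below all mRNAs in this share. For ATATA their share was also lower, but its interval of 42.6 to 61.8% holds the 57.8% of all mRNAs.

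**Figure D5:**
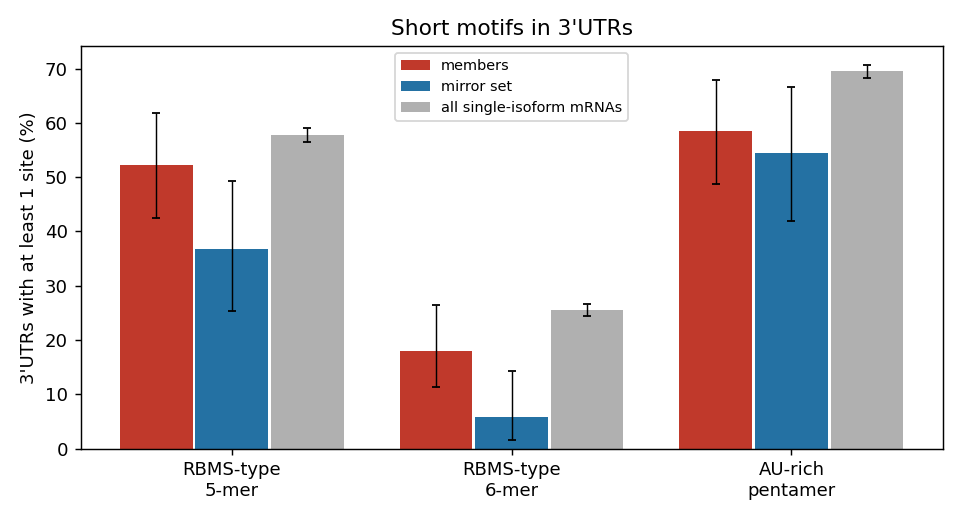
Bars give the percentage of 3′UTRs with at least 1 site of ATATA (RBMS-type 5-mer), ATATAG (RBMS-type 6-mer) and ATTTA (AU-rich pentamer) in the members, the mirror set and all single-isoform mRNAs, with exact 95% binomial intervals. Members lie at 52.3%, 18.0% and 58.6%, against 57.8%, 25.4% and 69.5% overall.

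Overlap with other genes was about as frequent among members as overall. Exons of 41 of 112 members (36.6%) overlapped exons of another gene, 16 on the same strand and 32 on the opposite one, and 45.1% of the mirror set did, against 38.8% overall. Whether reads were counted by strand is not given in the sources used here. Where exons of members such as SRRM2 and KMT2D overlap their antisense partners SRRM2-AS1 and DDN-AS1, reads of both may therefore have been mixed.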

How the data were processed

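Total RNA of 8 SW480 libraries, 2 per group, had been depleted of ribosomal RNA (Ribo-Zero Gold, ScriptSeq v2), per the labels' protocols. Per the submitters' processing notes the tools were STAR 2.5, Cufflinks and Cuffdiff, and the build was hg38. The authors deposited 1 table per shRNA, with 20474 (knockdown) and 21328 (control) RefSeq accessions and 1 log fold change each, per the file headers. These deposited values were read as log2 because Cuffdiff writes log2, and as 9 h over 0 h because MYC, FOS and JUN are negative; neither is in the headers. The deposited tables hold no counts, replicates or p-values, so depth and error are unknown and no test was made; no columns of other samples were present.

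Symbols came from RefSeq (GRCh38.p14; 22132 accessions) and GENCODE release 29 (204); 132 had none. The difference (knockdown minus control) was centred on its median over 6274 single-isoform mRNAs. Transcript features were taken from the longest coding GENCODE transcript matched to the accession, counting motifs on the sense strand with overlaps, in 3′UTRs of 20 nt or more. For 3 members (POLR2A, C1R and TP53INP2) no transcript matched. Intervals are exact binomial. Python 3.11.15, pandas 2.3.3, NumPy 2.4.6, SciPy 1.17.1 and matplotlib 3.10.9 were used, and the selection and the counts were tested on simulated data.

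The members and lists were chosen with earlier results of these data known. Genes were named as the members with the largest differences, those nearest the cut, up to 6 per list, the extremes of each table and 5 genes of prior interest; role groups, paralogs and other names were chosen after the values were seen. Alternatives changed the centring, the cut, the exclusions, the isoform rule, the symbol source and the motif; 1 planned motif is not reported here.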

Additional observations from a re-analysis of the deposited data

How the results depend on the processing

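The deposited values are 1 per transcript and population, so leaving out a replicate and fitting a replicate block were not run. No paired analysis was possible because the tables hold no values per library. The cut mattered most: at a difference of 1.5 or more 34 of the 115 members were left, 22 of them in a list, with medians in the authors' deposited tables of 0.45 in shRBMS1 cells and −1.36 in shControl cells; 32.4% reached 1 in shRBMS1 cells and 67.6% were at −1 or below in shControl cells. Of the list members, 2 transcription factors and 0 of the 4 chromatin regulators passed that cut. SRCAP, EP400 and ATN1, which that list does not hold, did pass it. Leaving out genes whose exons overlap another gene, an alternative chosen after seeing the data, left 71 members and 0 of the 4 listed chromatin regulators, and the share with a coding length of 5000 nt or more was 4.23% in place of 10.7%. In place of the 52.3% of 3′UTRs with ATATA, 33.3% had it in the last 500 bases and 18.0% had ATATAG. For all single-isoform mRNAs these shares were 40.5% and 25.4%, and for the mirror set 27.9% and 5.88%. Other settings gave 110 members without centring, 128 centred on ribosomal protein mRNAs, 118 with labile genes kept, 122 with ZNF genes kept, 114 without values beyond 5, 129 when non-coding accessions were not counted, 114 with RefSeq symbols alone and, chosen after seeing the data, 98 without values beyond 2. No median changed its sign. How many reads stood behind a value limits every number here and cannot be recovered.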
